A study of Homo sapiens with 15 samples.

Results

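In 4 platinum-resistant lines derived from the ovarian cancer line OVCAR4, 56 of the 16604 rows of the expression table (0.337%) were higher than in the parental line in every one of the 4. The values are log2 RPKM, the logarithm to base 2 of reads scaled to transcript length and library size, so a difference of 1 is a doubling. A gene was included when its mean in each resistant line was at least 0 and at least 1.2 log2 units (2.30-fold) above the parental mean. These differences from the parental line chose the genes, so they are given as a description and were not tested. The smallest of the 4 differences was 1.21 for METTL7A, 1.22 for C8orf88 and 1.24 for RAB3B, just inside the limit. HMGN5 at 1.196, NHSL2 at 1.19 and C2orf72 at 1.16 fell just outside it. At the limit on level, TRIM6 (lowest resistant mean 0.08) and C1orf127 (0.11) were included, and 2 rows without a gene symbol, both at -0.03, were not.

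OVCAR4 is a long-used cell line of high-grade serous ovarian cancer, and the samples labelled Ovcar4Parental are its platinum-sensitive form. Ov4Cis was selected from it in rising doses of cisplatin and Ov4Carbo in rising doses of carboplatin, both of them drugs that crosslink DNA. Ov4Carbo4 and Ov4Carbo7 were each grown from a single cell of Ov4Carbo, so each is 1 clone and neither is independent of Ov4Carbo, and each drug is represented by 1 selected line. RNA-seq of polyA RNA was done on 3 biological replicates of each of the 5 lines, 15 samples in all.

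Resistance to platinum drugs is known to involve drug uptake and export, thiol-based detoxification, repair of crosslinks and tolerance of damage, and resistant lines often also change their developmental, matrix and adhesion programmes. Selection in culture acts on a mixed population, and a line grown from a single cell carries the state of that cell together with whatever it has gained since. Some homeobox and other developmental transcription factors, Wnt and Hedgehog signalling components and matricellular proteins are low in many adult epithelial cells, and others are not. In the parental line the matricellular gene CCN1 was at 9.615 log2 RPKM and THBS2 at -6.94, so the level varied within a class.

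Read depth per sample is unknown. After the authors' normalization every sample had a median of 2.77 log2 RPKM, and 13643 to 13712 rows per sample were above 0. Of 12 markers of serous and Muellerian epithelium, PAX8 lay between 5.85 and 6.74 in the 5 lines, while WT1 was under 0 in all of them. EPCAM was 5.98 in the parental line and 1.17 in Ov4Cis. The 12 markers did not move together. From the parental line to Ov4Cis, KRT7 went from 8.28 to -0.57 and MUC16 from 4.60 to -1.73, while SOX17 went from 6.91 to 7.76 and MECOM from 6.55 to 7.39. Under 0 were 1 of the 12 in the parental line and in Ov4Carbo, 5 in Ov4Cis, 2 in Ov4Carbo4 and 2 in Ov4Carbo7. The summed level of the 12 markers was 966 to 1173 RPKM in parental samples, 506 to 622 in Ov4Cis, 606 to 688 in Ov4Carbo, 721 to 782 in Ov4Carbo4 and 501 to 514 in Ov4Carbo7. Its part in the differences below was not tested. In bulk RNA, fewer cells expressing a gene and less RNA per cell cannot be told apart. The sample titles carry numbers in 2 series. The first series holds Ov4Carbo replicate 1 and all samples of Ov4Carbo4 and Ov4Carbo7, and the second holds the parental line, Ov4Cis and Ov4Carbo replicates 2 and 3. Nothing in the labels calls these series batches. Only Ov4Carbo links them, so a series term in a fit rests on its replicate 1 against its replicates 2 and 3.

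Most of the 56 genes were weakly expressed in the parental line. Their median parental mean was -0.34 log2 RPKM (quartiles -1.35 and 1.15), against 2.77 over all rows. The lowest was EN2 at -6.33 and the highest UCHL1 at 5.14. The parental mean was under 0 for 30 genes (53.6%, against 17.7% of all rows) and under -3 for 5, namely EN2, PRKCB, SELENOP, SHISA3 and SST. Only 3 genes, VAT1, MAP1B and UCHL1, had a parental mean of 4 or more. The genes with a high parental level had smaller differences. The rule builds in part of this relation. A gene far below 0 in the parental line had to reach at least 0 in every resistant line to be included. UCHL1, a ubiquitin hydrolase abundant in neurons, had parental values of 5.44, 5.13 and 4.84 and lay between 6.36 and 6.89 in the 12 resistant samples. Its difference ran from 1.24 in Ov4Carbo4 to 1.69 in Ov4Carbo7. Because values near the bottom of the scale rest on few reads, the differences were also taken on log2(RPKM + 1). There, 21 of the 56 stayed at 1.2 or more in all 4 lines. Of the 5 genes with a parental mean under -3, EN2 and SHISA3 stayed. PRKCB (1.094 in Ov4Carbo4), SELENOP (1.151 in Ov4Cis and 1.113 in Ov4Carbo4) and SST (0.605 in Ov4Carbo4) did not.

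**Figure D1:**
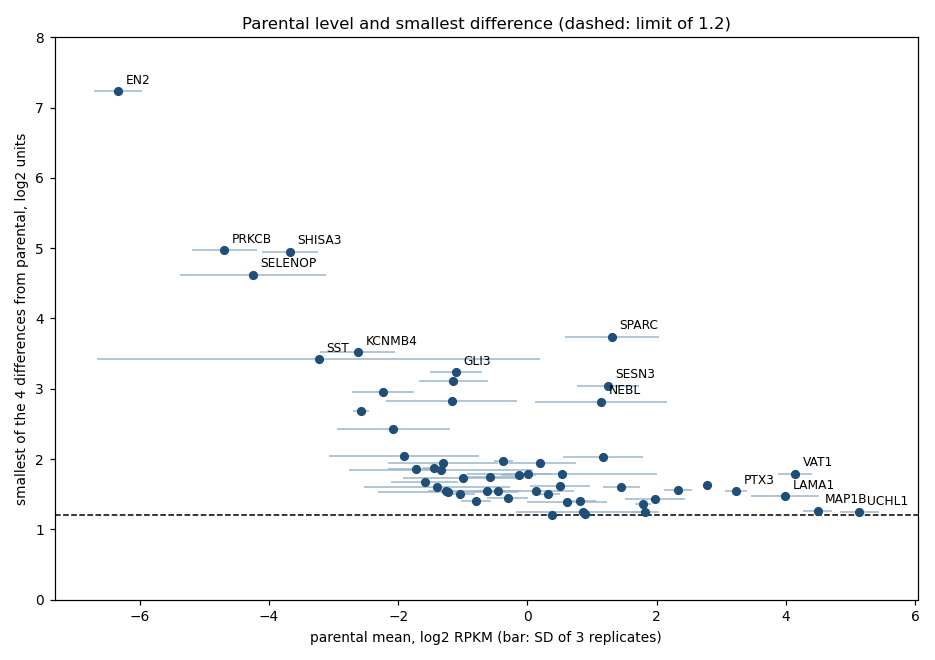
Parental level and smallest difference of the 56 genes. The x axis gives the parental mean (log2 RPKM, n = 3) and the y axis the smallest of the 4 resistant-minus-parental differences (log2 units); EN2 lies at -6.33 with a smallest difference of 7.23, and the genes with a parental mean of 4 or more lie below 2.

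Over the 56 genes, Ov4Cis had a median difference of 2.69 log2 units, Ov4Carbo of 2.00, Ov4Carbo4 of 2.45 and Ov4Carbo7 of 2.70, and the median over all rows was between 0.02 and 0.07. The smallest of a gene's 4 differences had a median of 1.74, was at least 2 for 17 genes, at least 3 for 10 and at least 4 for 4. All 12 resistant samples lay above all 3 parental samples for 51 of the 56 genes (6.17% of all rows do). Line by line, the 3 samples lay above the 3 parental samples for 56 genes in Ov4Cis (29.5% of all rows), 53 in Ov4Carbo (20%), 54 in Ov4Carbo4 (32.5%) and 56 in Ov4Carbo7 (29.5%). The rule used these contrasts, so nothing is read from the counts. The 5 genes whose samples overlapped were SST, SOX6, CA8, SLC1A1 and MOV10L1. Parental replicates were spread more widely for these genes than for others, with a median SD of 0.44 against 0.17 over all rows, and the parental SD was over 1 for 10 genes. In the resistant lines too the median SD of the 56 was above that of all rows. It was 0.24 in Ov4Cis (0.14 over all rows), 0.39 in Ov4Carbo (0.28), 0.22 in Ov4Carbo4 (0.12) and 0.19 in Ov4Carbo7 (0.16). None of these comparisons was matched for expression level.

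**Figure D2:**
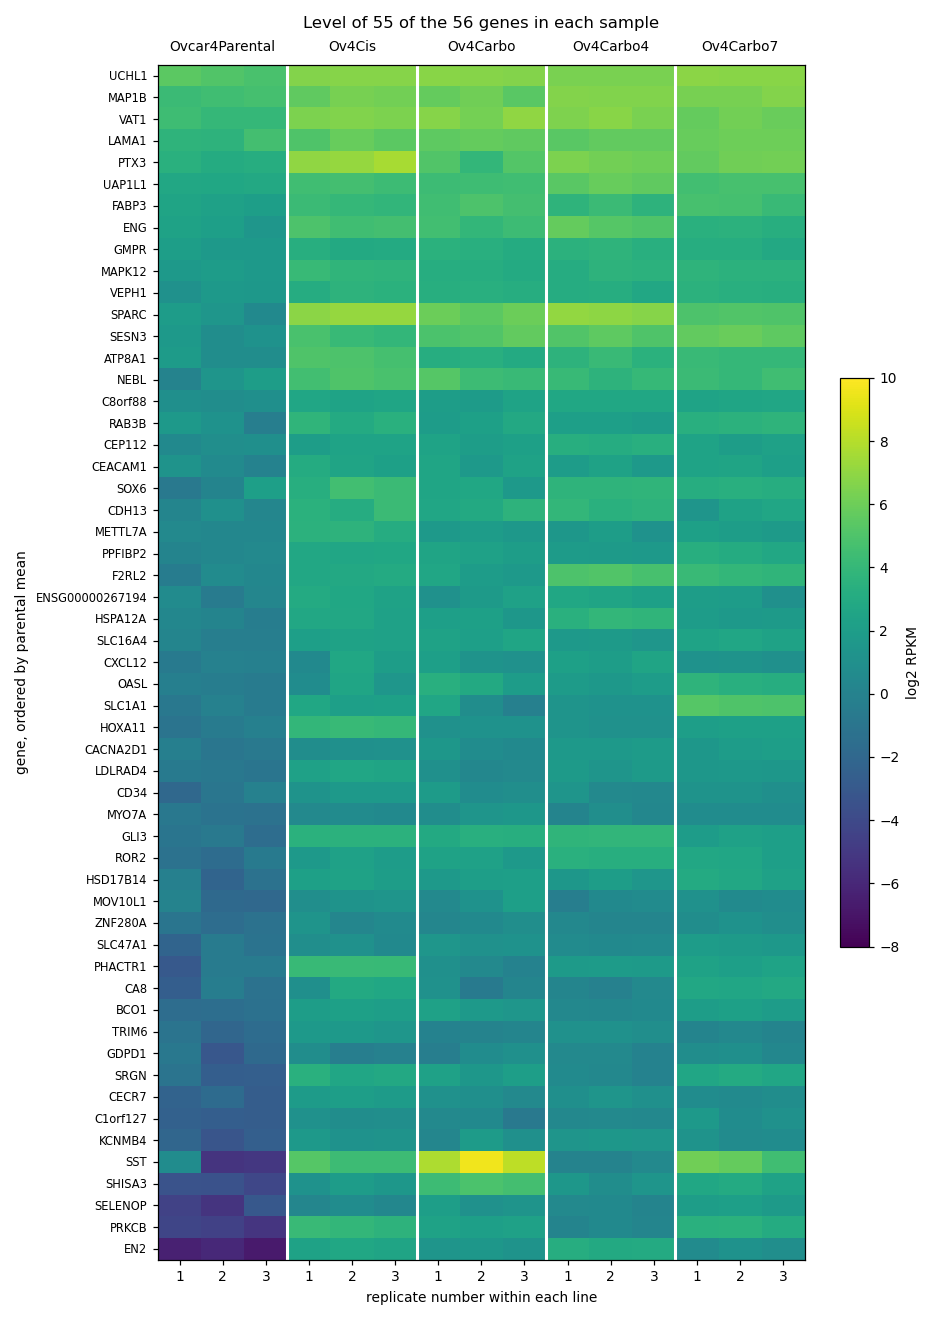
Of the 56 genes, 55 in each of the 15 samples. Columns are samples grouped by line, rows are genes ordered by parental mean, and colour gives the log2 RPKM; the 3 parental columns are the lowest except for SST, SOX6, CA8, SLC1A1 and MOV10L1, and SST replicate 1 of the parental line stands above the Ov4Carbo4 samples.

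The genes with the largest smallest difference were EN2, PRKCB, SHISA3 and SELENOP, all far below 0 in the parental line. EN2 (ENSG00000164778) encodes engrailed homeobox protein, a transcription factor that patterns the midbrain and hindbrain. Parental values were -6.37, -5.94 and -6.69. In Ov4Cis they were 2.38, 2.70 and 2.48, and in Ov4Carbo 1.38, 1.55 and 1.25. In Ov4Carbo4 they were 3.20, 2.93 and 3.04, and in Ov4Carbo7 0.69, 1.14 and 0.87. No resistant sample came near a parental one, and the differences were 8.85, 7.73, 9.39 and 7.23 log2 units in Ov4Cis, Ov4Carbo, Ov4Carbo4 and Ov4Carbo7. A fold of that size depends on the parental value, which lies near the bottom of the scale, where the lowest value of a sample was between -8.18 and -7.68.

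PRKCB (ENSG00000166501) encodes the beta isoform of protein kinase C, a kinase activated by calcium and diacylglycerol. Parental values were -4.27, -4.55 and -5.24. The Ov4Cis values were 4.18, 3.94 and 3.62, those of Ov4Carbo 2.39, 2.19 and 2.28, those of Ov4Carbo4 0.11, 0.56 and 0.17, and those of Ov4Carbo7 3.41, 3.49 and 3.07. Ov4Carbo4 was the lowest of the resistant lines, still 4.97 log2 units above the parental mean, and Ov4Cis the highest at 8.60 above it. SHISA3 (ENSG00000178343) encodes a protein of the endoplasmic reticulum that retains Frizzled and FGF receptors and so limits Wnt signalling. It had parental values of -3.42, -3.43 and -4.17 and was highest in Ov4Carbo at 4.34, 4.94 and 4.63. Its values were 1.17, 1.96 and 1.51 in Ov4Cis, 1.56, 0.85 and 1.40 in Ov4Carbo4 and 2.71, 2.99 and 2.35 in Ov4Carbo7. Both single-cell lines were thus below the line they were grown from. SELENOP (ENSG00000250722), a secreted selenium carrier, had parental values of -4.42, -5.27 and -3.04 and differences between 4.62 in Ov4Carbo4 and 6.24 in Ov4Carbo7. Its exons overlap those of CCDC152 on the other strand.

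Promoter sequence is shown for these 4 genes because they had the largest smallest differences and because they differ in base composition. Each stretch runs from 250 bases before to 50 after the start given by RefSeq on GRCh38.p14. Capitals mark matches to the motifs searched, which were the GC box GGGCGG, the E-box CANNTG, the CCAAT box CCAAT, the TATA box TATAAA, the AP-1 motif TGANTCA, the GLI motif GACCACCCA and the interferon-stimulated element GAAANNGAA, on both strands. EN2 lies at chr7:155457879-155458178 on the plus strand, PRKCB at chr16:23835733-23836032 on the plus strand, SHISA3 at chr4:42397238-42397537 on the plus strand and SELENOP at chr5:42811843-42812142 on the minus strand.
EN2: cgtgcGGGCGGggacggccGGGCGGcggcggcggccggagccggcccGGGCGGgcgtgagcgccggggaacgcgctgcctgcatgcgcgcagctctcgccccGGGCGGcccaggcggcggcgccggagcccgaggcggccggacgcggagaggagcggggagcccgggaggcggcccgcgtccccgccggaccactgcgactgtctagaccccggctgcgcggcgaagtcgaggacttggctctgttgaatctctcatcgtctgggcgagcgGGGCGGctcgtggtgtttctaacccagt
PRKCB: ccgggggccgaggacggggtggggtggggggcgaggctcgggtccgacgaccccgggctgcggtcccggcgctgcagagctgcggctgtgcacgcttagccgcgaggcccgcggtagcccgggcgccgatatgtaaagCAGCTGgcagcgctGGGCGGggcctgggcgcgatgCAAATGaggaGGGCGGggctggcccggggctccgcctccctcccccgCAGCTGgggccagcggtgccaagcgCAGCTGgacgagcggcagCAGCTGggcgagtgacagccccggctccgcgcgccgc
SHISA3: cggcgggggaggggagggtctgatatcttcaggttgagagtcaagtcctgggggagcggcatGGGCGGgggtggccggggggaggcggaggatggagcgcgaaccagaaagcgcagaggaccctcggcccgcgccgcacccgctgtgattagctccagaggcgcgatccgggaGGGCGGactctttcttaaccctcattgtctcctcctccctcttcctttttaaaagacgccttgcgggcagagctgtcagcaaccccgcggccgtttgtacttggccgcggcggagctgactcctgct
SELENOP: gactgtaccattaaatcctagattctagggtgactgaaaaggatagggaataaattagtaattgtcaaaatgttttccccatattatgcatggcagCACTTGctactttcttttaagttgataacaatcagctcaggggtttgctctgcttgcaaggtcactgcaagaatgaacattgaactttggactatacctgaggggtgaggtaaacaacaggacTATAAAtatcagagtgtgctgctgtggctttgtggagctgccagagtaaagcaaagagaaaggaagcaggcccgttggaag

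The EN2 stretch holds 50 CG dinucleotides in 300 bases at 78% G and C, with 5 GC boxes marked. PRKCB holds 38 CG dinucleotides at 77.7% G and C, with 2 GC boxes and 5 E-boxes, and SHISA3 26 at 65.3%, with 2 GC boxes. SELENOP is unlike the other 3. It has 1 CG dinucleotide and 42% G and C, with a TATA box shortly before the start and an E-box farther upstream. A promoter was found for 39 of the 56 genes and for 11161 rows in all. The share with at least 50% G and C and an observed over expected CG ratio of at least 0.6 was 51.3% among the 39 (20 genes) and 79.6% over all rows. Among genes with a parental mean under 0 it was 65% for the 20 with a promoter (13 genes) and 60% for all such rows. Among those with a parental mean of 0 or more it was therefore under 51.3% for the members and over 79.6% for the rows. The part of parental level in these shares was not tested. The GC box was found in 53.8% of the 39 and 70.3% of all promoters, the CCAAT box in 12.8% and 36.4%, and the E-box, whose matches can overlap other motifs, in 66.7% and 60.2%. The TATA box was found in 5 (12.8%, against 5.48%), namely SELENOP, SST, PHACTR1, MAP1B and UCHL1. The AP-1 motif was found in 4 (10.3%, against 4.53%), namely F2RL2, SOX6, VEPH1 and RAB3B. The interferon-stimulated element was found in CEACAM1 alone (2.56%, against 6.17%), and the GLI motif in none (0.224% of all promoters). These are matches of letters in a window, and no binding was measured.

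The other transcription factors among the 56 were GLI3, SOX6 and HOXA11. GLI3 (ENSG00000106571), a zinc finger factor that acts at the end of the Hedgehog pathway and in its repressor form holds the targets off, had parental values of -1.04, -0.75 and -1.55. Its resistant values lay between 3.46 and 3.59 in Ov4Cis, 2.93 and 3.33 in Ov4Carbo, 3.75 and 3.85 in Ov4Carbo4 and 1.92 and 2.32 in Ov4Carbo7. The differences were 4.66, 4.29, 4.92 and 3.24 in that order, and Ov4Carbo7 stood below the other 3. SOX6, a factor of cartilage, muscle and red cell development, was uneven in the parental line, at -0.71, 0.15 and 2.15. Parental replicate 3 lay above Ov4Carbo replicate 3 at 1.66, so the groups overlapped. HOXA11, a posterior homeobox gene that patterns the Muellerian tract, had parental values of -1.05, -0.55 and -0.15 and Ov4Cis values of 3.95, 4.10 and 3.98. The other 3 lines were lower, between 1.07 and 2.26. HOXA11 shares exonic sequence with its antisense partner HOXA11-AS, and whether the authors counted by strand is not stated in the sources used here.

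**Figure D3:**
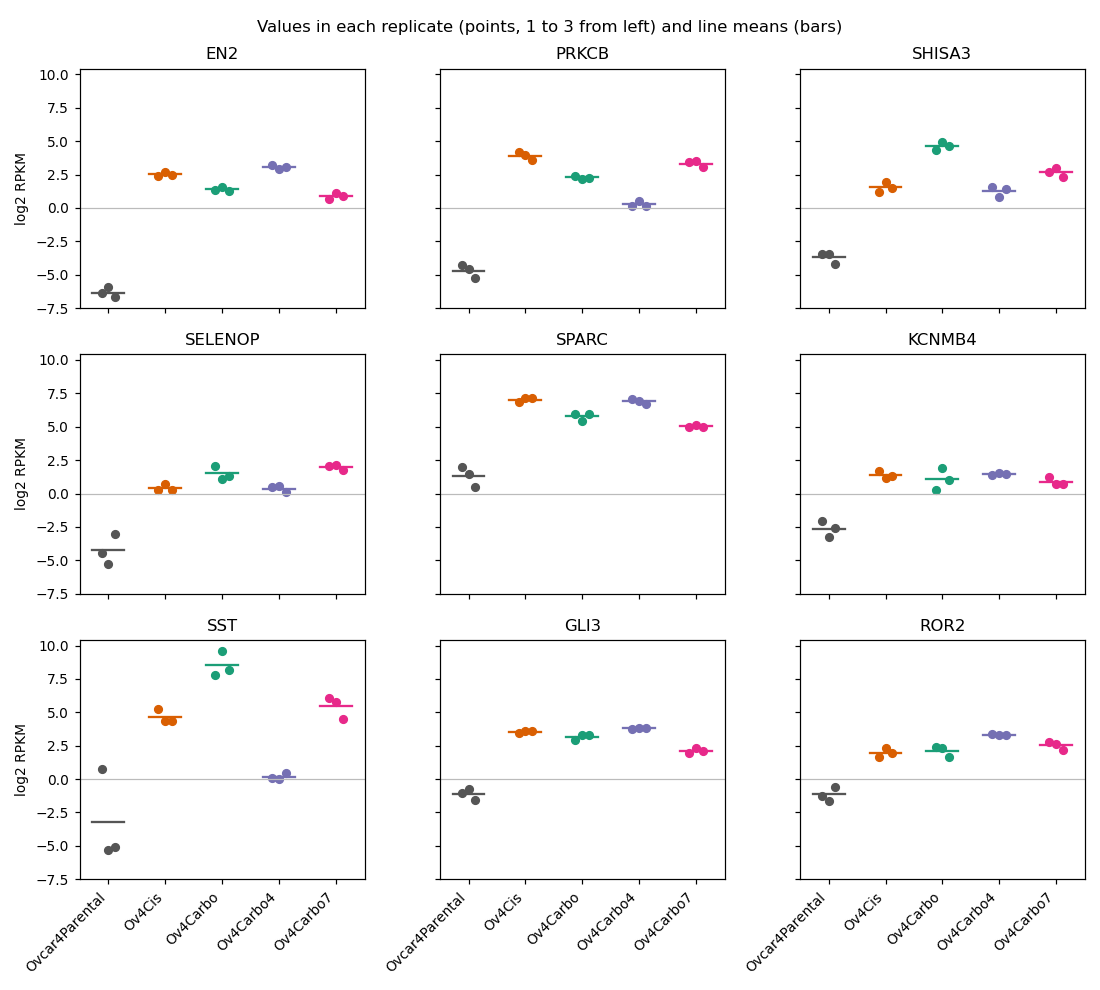
The 9 genes with the largest smallest difference, by sample. Points are the 3 replicates of each line (log2 RPKM) and bars the line means; all resistant points lie above the parental points except for SST, where the first parental sample (0.73) lies above the 3 Ov4Carbo4 samples.

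Secreted and matrix genes included both large and even differences. SPARC (ENSG00000113140), a matricellular protein that binds collagen, had parental values of 1.95, 1.46 and 0.51. It reached 6.85, 7.12 and 7.15 in Ov4Cis and 7.11, 6.91 and 6.74 in Ov4Carbo4. In Ov4Carbo the values were 5.99, 5.46 and 5.95, and in Ov4Carbo7 4.98, 5.14 and 5.01. Every resistant sample was well above the parental ones, with differences of 5.73, 4.49, 5.61 and 3.74 in Ov4Cis, Ov4Carbo, Ov4Carbo4 and Ov4Carbo7. SPARC is also made by fibroblasts, and 4 of 8 stromal markers had a row. LUM and PDGFRB were under 0 in every line, COL1A2 was 1.39 in the parental line and under 0 in the 4 resistant lines, and COL1A1 was between 2.26 and 3.63. The summed level of the 4 was 6.85 to 9.41 RPKM in parental samples, 4.04 to 6.29 in Ov4Cis, 6.01 to 7.54 in Ov4Carbo, 11.5 to 14.6 in Ov4Carbo4 and 6.71 to 8.51 in Ov4Carbo7, and its part in the SPARC difference was not tested.

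SST (ENSG00000157005) encodes somatostatin, a peptide hormone that inhibits secretion. It had the widest range of resistant line means, and its parental replicates were far apart. Parental replicate 1 was at 0.73 and the other parental replicates at -5.31 and -5.11. Ov4Carbo had 7.79, 9.62 and 8.19, Ov4Carbo7 6.10, 5.77 and 4.47, Ov4Cis 5.25, 4.37 and 4.31, and Ov4Carbo4 0.08, 0.03 and 0.46. Parental replicate 1 thus lay above every Ov4Carbo4 sample, and the difference of 3.42 for that line rests on the other parental replicates. PTX3, a soluble pattern recognition protein, had parental values of 3.40, 3.08 and 3.19 and its highest values in Ov4Cis, where they averaged 7.25. LAMA1, a basement membrane laminin chain, rested on a high parental mean of 3.98 and had even differences, from 1.47 in Ov4Cis to 1.98 in Ov4Carbo7. SRGN, the core protein of the secretory granule proteoglycan serglycin, had a parental mean of -2.08 and differences from 2.43 in Ov4Carbo4 to 5.06 in Ov4Cis. CXCL12, a chemokine that binds CXCR4, had a parental mean of -0.31 and differences from 1.44 in Ov4Carbo7 to 2.58 in Ov4Carbo4.

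Among surface receptors, ROR2 (ENSG00000169071), a receptor tyrosine kinase-like protein that binds Wnt ligands outside the beta-catenin route, had parental values of -1.24, -1.63 and -0.58. It was highest in Ov4Carbo4 at 3.41, 3.29 and 3.29. The other lines lay between 1.65 and 2.77, and the difference was 4.48 in Ov4Carbo4, 3.68 in Ov4Carbo7, 3.27 in Ov4Carbo and 3.11 in Ov4Cis. F2RL2, a member of the protease-activated receptor family, had parental values of -0.45, 0.65 and 0.36 and was also highest in Ov4Carbo4, with a mean of 4.96. Its exons overlap IQGAP2 on the other strand. CDH13, a cadherin anchored by lipid and without a cytoplasmic tail, had differences from 1.62 in Ov4Carbo7 to 3.15 in Ov4Carbo4. CEACAM1, an adhesion molecule of epithelial and immune cells, had differences from 1.40 to 2.00.

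ENG and CD34 are best known from endothelium. ENG, a co-receptor for TGF-beta family ligands, had a parental mean of 1.98 and differences from 1.43 in Ov4Carbo7 to 3.36 in Ov4Carbo4. CD34, a sialomucin of blood progenitors and vessels, had a parental mean of -0.99 and differences from 1.74 in Ov4Carbo4 to 2.54 in Ov4Cis. Of 5 endothelial markers, PECAM1, CLDN5 and TEK had no row. VWF was under 0 in every line, and CDH5 was 2.46 in the parental line, 5.13 in Ov4Cis, 4.42 in Ov4Carbo4, 3.08 in Ov4Carbo7 and 2.15 in Ov4Carbo. The summed level of VWF and CDH5 was 6.13 to 6.96 RPKM in parental samples, 31.8 to 40.4 in Ov4Cis, 4.196 to 6.03 in Ov4Carbo, 20.6 to 25.1 in Ov4Carbo4 and 8.79 to 10.2 in Ov4Carbo7. Its part in the ENG and CD34 differences was not tested.

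Signalling genes besides PRKCB and SHISA3 were SESN3, PHACTR1, LDLRAD4, VEPH1 and MAPK12. SESN3, a sestrin, one of the stress proteins that restrain the growth kinase mTORC1, had parental values of 1.75, 0.79 and 1.19. Its resistant values lay between 3.92 in Ov4Cis and 5.87 in Ov4Carbo7, and its differences were 3.04, 3.99, 3.98 and 4.47 in Ov4Cis, Ov4Carbo, Ov4Carbo4 and Ov4Carbo7. PHACTR1, a regulator of protein phosphatase and actin, had parental values of -2.98, -0.50 and -0.53. It was uneven among the resistant lines, with 4.10, 4.17 and 4.12 in Ov4Cis and 1.06, 0.48 and -0.01 in Ov4Carbo. MAPK12, the gamma isoform of the stress kinase p38, was even, with differences from 1.36 to 2.07, and its exons overlap those of HDAC10 on the same strand. LDLRAD4, a membrane protein that limits TGF-beta signalling, had differences from 1.40 in Ov4Carbo to 3.31 in Ov4Cis.

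Transporters and channels numbered 7. KCNMB4 (ENSG00000135643), an accessory subunit of the large-conductance calcium-activated potassium channel, had parental values of -2.07, -3.23 and -2.58 and lay between 0.25 and 1.89 in the 12 resistant samples. Its differences were 3.99, 3.69, 4.07 and 3.52 in Ov4Cis, Ov4Carbo, Ov4Carbo4 and Ov4Carbo7. SLC47A1 encodes MATE1, an exporter of organic cations, and is the 1 gene of the platinum transport and detoxification list among the 56. Its parental values were -2.22, -0.54 and -1.16, and its resistant values ran from 0.55 to 1.97. The differences were 2.17, 2.56, 1.94 and 3.10. SLC1A1, a carrier of glutamate and cysteine, had parental values of -0.77, -0.08 and -0.51 and was highest in Ov4Carbo7, with a mean of 5.10. In Ov4Carbo it read 2.64 in replicate 1, of the first title series, and 0.83 and -0.18 in replicates 2 and 3, and without replicate 1 SLC1A1 did not meet the rule. ATP8A1, a phospholipid flippase, had differences from 2.04 to 3.72, and FABP3, a fatty acid-binding protein, from 1.56 to 2.36. The monocarboxylate carrier relative SLC16A4 had differences from 1.78 to 2.64 and CACNA2D1, an accessory subunit of calcium channels, from 1.55 to 2.48.

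Enzymes and RNA-acting proteins were mostly low in the parental line. HSD17B14, a dehydrogenase of steroids, had parental values of -0.14, -2.17 and -1.21 and differences from 2.83 in Ov4Carbo4 to 3.87 in Ov4Carbo7. BCO1, which splits beta-carotene, had a parental mean of -1.45 and differences from 1.88 in Ov4Carbo4 to 3.57 in Ov4Cis. VAT1, an oxidoreductase-like protein of vesicle membranes, started from 4.14 and had differences from 1.79 to 2.52. Of HSD17B14, BCO1 and VAT1, VAT1 alone was well expressed in the parental line. OASL, an interferon-induced relative of the oligoadenylate synthetases, had parental values of -0.22, -0.39 and -0.50. Its resistant values ran from 0.77 in Ov4Cis replicate 1 to 3.68 in Ov4Carbo7 replicate 1. MOV10L1, a helicase of the piRNA pathway in germ cells, overlapped with the parental samples, and TRIM6, a ubiquitin ligase, shares exons with the readthrough gene TRIM6-TRIM34.

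Cytoskeletal and neuronal genes among the 56 were NEBL, MAP1B, MYO7A, PPFIBP2, CEP112, RAB3B and UCHL1. NEBL, an actin-binding protein of the thin filament, had the largest smallest difference of these at 2.82, with parental values of 0.03, 1.36 and 2.03. MAP1B, a microtubule-associated protein of growing axons, started from 4.49 and had differences from 1.27 in Ov4Carbo to 2.14 in Ov4Carbo4. Nearly all of the 56 rows were protein-coding genes, 54 in all (96.4%, against 78.1% of all rows). The exceptions were CECR7, a pseudogene with parental values of -2.27, -1.74 and -2.69 and differences from 2.96 to 4.17, and 1 row with neither a symbol nor an annotated chromosome.

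Differences among the 4 resistant lines were not a criterion of the rule, and these were tested. The rule did set a lower limit on the mean of each of the same 4 lines, so the choice is not independent of these differences. The shares of the 56 and of all rows below are therefore given as a description. The moderated F-test of limma across all rows found a difference among the 4 lines at an adjusted p under 0.05 for 43 of the 56 (76.8%), near the 72.3% of all rows. The range of the 4 line means had a median of 1.26 log2 units (0.78 over all rows), was under 1 for 19 genes (33.9%, against 63.9% of all rows) and over 2 for 11 (19.6%, against 14.2%). Each pair of resistant lines was then compared, with a gene called at an adjusted p under 0.05 and a difference of at least 1. Between Ov4Carbo4 and Ov4Carbo 15 of the 56 were called (26.8%, against 14.2% of all rows), 10 of them higher in Ov4Carbo4 (7.58% of all rows) and 5 lower (6.64%). Between Ov4Carbo7 and Ov4Carbo 12 were called (21.4%, against 13.3%), 10 higher in Ov4Carbo7 (7.72%) and 2 lower (5.62%). The single-cell lines differed from each other in 22 (39.3%, against 20.9%), 14 higher in Ov4Carbo7 (11.1%) and 8 lower (9.86%). Ov4Cis differed from Ov4Carbo in 17 (30.4%, against 13.8%), 14 higher in Ov4Cis (7.88%) and 3 lower (5.9%). Against Ov4Carbo4 it differed in 15 (26.8%, against 16.8%), 11 higher (9.12%) and 4 lower (7.72%), and against Ov4Carbo7 in 18 (32.1%, against 14.7%), 12 higher (7.46%) and 6 lower (7.2%). The median of the 56 differences was 0.06, 0.27, 0.36, 0.37, 0.30 and 0.02 log2 units in these 6 comparisons, in the order given. With the title series added to the fit, the 12 calls between Ov4Carbo7 and Ov4Carbo became 5, of which 4 were among the 12.

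**Figure D4:**
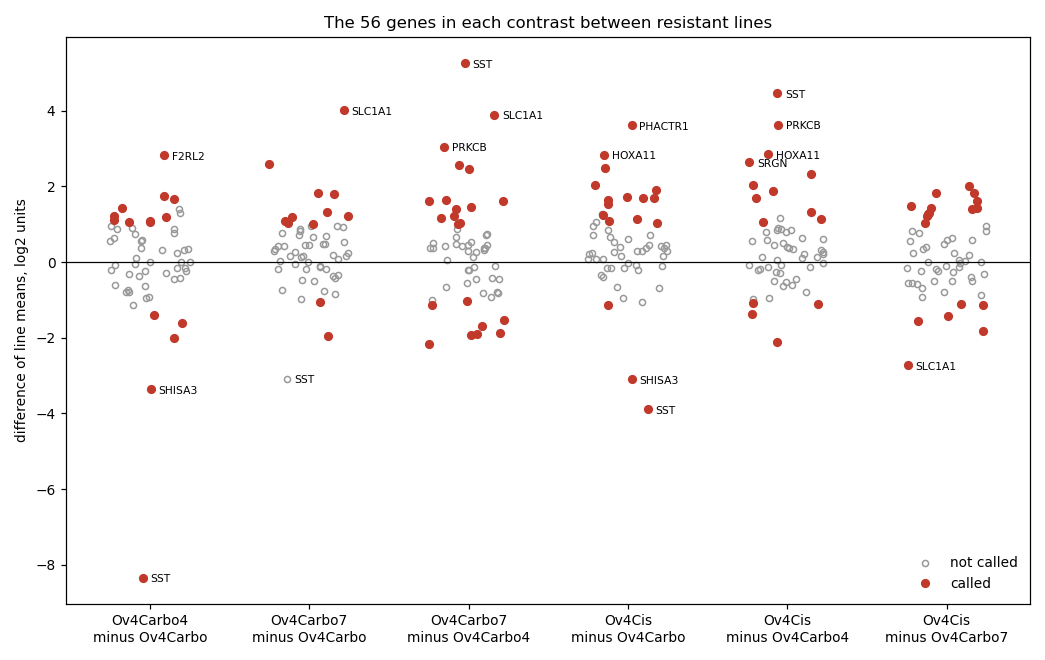
Differences among resistant lines for the 56 genes. Each column of points is 1 of the 6 comparisons, the y axis gives the difference of line means (log2 units) and filled points are called genes; SST reaches -8.35 between Ov4Carbo4 and Ov4Carbo, and between 12 and 22 genes are called per comparison.

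SST had the largest called differences. It fell by 8.35 log2 units from Ov4Carbo to Ov4Carbo4 (SE 1.22, limma adjusted p = 0.000226), with all 3 Ov4Carbo4 samples below all 3 of Ov4Carbo. It was 5.26 higher in Ov4Carbo7 than in Ov4Carbo4 (SE 1.22, limma adjusted p = 0.00319) and 4.46 higher in Ov4Cis than in Ov4Carbo4 (adjusted p = 0.0107). The SE draws on the spread in all 5 lines, the parental line included. For SST the replicate SD was 3.43 in the parental line and 0.24 to 0.96 in the resistant lines. The difference between Ov4Cis and Ov4Carbo was -3.89 (limma adjusted p = 0.0272). That last call was lost without Ov4Cis replicate 2 (adjusted p = 0.0747) or 3 (0.0784) and without Ov4Carbo replicate 2 (0.0918) or 3 (0.0528), and the comparison of Ov4Cis with Ov4Carbo4 was lost with the title series in the fit (3.34, adjusted p = 0.283). SLC1A1 was 4.005 higher in Ov4Carbo7 than in Ov4Carbo (SE 0.50, limma adjusted p = 9.82e-05), its 3 samples above all 3 of Ov4Carbo, and 2.46 higher (adjusted p = 0.00128) with the title series in the fit. Between Ov4Cis and Ov4Carbo7 the SLC1A1 difference was -2.73 (SE 0.50, adjusted p = 0.00101), and with the title series in the fit it was -0.41 (adjusted p = 0.53).

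The other leading calls kept their side of the threshold under each alternative run in which they were tested. EN2 was removed by the filter of low values and has no result in that run. F2RL2 was 2.83 higher in Ov4Carbo4 than in Ov4Carbo (SE 0.27, limma adjusted p = 1.1e-05), and its difference between Ov4Cis and Ov4Carbo4 was -2.11 (SE 0.27, adjusted p = 6.01e-05), or -1.29 (adjusted p = 0.0354) with the title series in the fit. SHISA3 fell by 1.95 from Ov4Carbo to Ov4Carbo7 (SE 0.28, adjusted p = 0.000219). EN2 was lower in Ov4Carbo7 than in Ov4Carbo4, with a difference of -2.16 (SE 0.18, adjusted p = 1.53e-06). In each of these comparisons the 3 samples of 1 line did not overlap the 3 of the other. PHACTR1 was 3.62 higher in Ov4Cis than in Ov4Carbo (SE 0.51, adjusted p = 0.000169), and SPARC was 2.00 higher in Ov4Cis than in Ov4Carbo7 (SE 0.28, adjusted p = 0.000142).

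PRKCB, SHISA3, HOXA11 and PTX3 were called in 5 of the 6 comparisons (7.14% of the 56, against 3.77% of all rows), and EN2, SPARC, SST, SRGN, F2RL2, PHACTR1 and CA8 in 4 (12.5%, against 4.90%). At the other end, 19 of the 56 were called in none (33.9%, against 64.8%). They were KCNMB4, NEBL, GDPD1, VAT1, SLC16A4, CD34, VEPH1, FABP3, CACNA2D1, ZNF280A, MOV10L1, MYO7A, LAMA1, CEACAM1, MAPK12, MAP1B, GMPR, UCHL1 and C8orf88. That does not show equal levels, as 9 of these 19 passed the F-test. Ov4Cis held the highest of the 4 means for 19 of the 56 (33.9%, against 22.1% of all rows), Ov4Carbo7 for 17 (30.4%, against 25.5%), Ov4Carbo4 for 14 (25%, against 31.8%) and Ov4Carbo for 6 (10.7%, against 20.7%). The Ov4Carbo mean lay between those of its 2 single-cell lines for 30 genes (53.6%, against 43.3% of all rows), below both for 18 (32.1%, against 29.6%) and above both for 8 (14.3%, against 27.1%).

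The 56 genes were spread over the genome. They lay on 16 of 23 chromosomes, with 6 on chromosome 1, 5 on chromosome 11 and 4 each on chromosomes 5, 7, 9, 10, 17 and 22. Chromosome 1 held 10.9% of the 55 genes with a known chromosome and 10.2% of all rows. Chromosome 22, with CECR7, ZNF280A, MOV10L1 and MAPK12, held 7.27% of the genes and 2.44% of the rows. Chromosomes 2, 13, 14, 15, 20, 21 and X held none. Few were neighbours. SHISA3 and ATP8A1 followed each other on chromosome 4 with no row of the table between them and on opposite strands, and 4 rows separated UCHL1 from SHISA3. Those 4, LIMCH1, TMEM33, SLC30A9 and ATP1B1P1, had differences between -0.83 and 0.76, all under the limit of 1.2. The pair VEPH1 and PTX3 on chromosome 3 have overlapping exons on opposite strands, so without strand their reads cannot be told apart there. Their 4 differences were 1.98, 1.83, 1.60 and 1.98 for VEPH1 and 4.03, 1.54, 2.98 and 2.76 for PTX3, in Ov4Cis, Ov4Carbo, Ov4Carbo4 and Ov4Carbo7. Exons overlapping another annotated gene were found for 24 of the 56, on the opposite strand for 21.

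**Figure D5:**
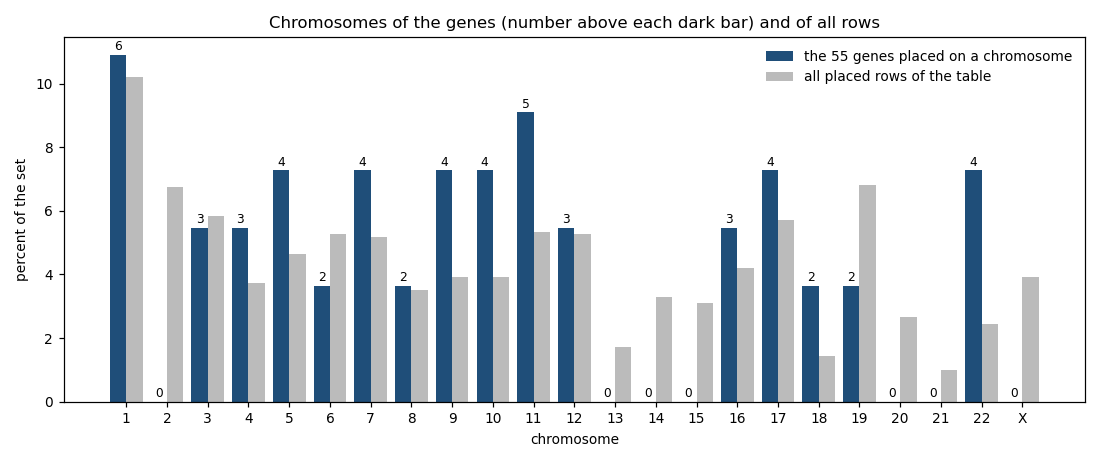
Share of the placed genes and of all rows on each chromosome. Bars give percent of the genes and percent of all rows; the shares are close on chromosome 1 (10.9% and 10.2%), and chromosome 22 holds 7.27% of the genes and 2.44% of the rows.

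Of 22 gene lists written for pathways and cell functions, 10 held a member and 12 held none. The chosen genes were 0.337% of all rows. At that share most lists of this length would hold none, so nothing is read from an empty list. The shares of the lists with a member were not tested. Those with none included epithelial genes, crosslink repair, p53 targets, the BCL2 family, proliferation, hypoxia and glycolysis, Notch, TGF-beta and BMP, the ATF4 stress response, cholesterol and fatty acid synthesis, receptor tyrosine kinases and aldehyde dehydrogenases. The 13 listed genes were SHISA3 and ROR2 (Wnt, 2 of 38 genes with a row), GLI3 (Hedgehog, 1 of 14), OASL (interferon, 1 of 49), SLC47A1 (platinum transport, 1 of 48), SPARC (matrix, 1 of 51), ENG (mesenchymal, 1 of 19), HOXA11 (HOX, 1 of 27), CDH13 (adhesion, 1 of 52), CXCL12 (NF-kB targets and cytokines, 1 of 32) and SST, UCHL1 and CACNA2D1 (ion channels and neuronal genes, 3 of 30).

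The other genes of the 10 lists that hold a member were also compared with the parental line. Called against the parental line in limma were 8.46% of all rows as higher and 7.41% as lower in Ov4Cis, 5.76% and 6.93% in Ov4Carbo, 7.43% and 7.7% in Ov4Carbo4, and 9.26% and 7.75% in Ov4Carbo7. These 4 comparisons share the parental samples. Beside GLI3, the 13 other Hedgehog genes had 2 higher and 1 lower in Ov4Cis, 0 and 4 in Ov4Carbo, 7 and 0 in Ov4Carbo4 and 1 and 0 in Ov4Carbo7. The median difference of these 13 genes was 1.14 log2 units for Ov4Carbo4, 0.34 for Ov4Carbo7, 0.30 for Ov4Cis and -0.01 for Ov4Carbo. PTCH1, the Hedgehog receptor gene, was -1.38 log2 units from the parental mean in Ov4Cis, -1.15 in Ov4Carbo, -0.99 in Ov4Carbo7 and 0.30 in Ov4Carbo4. PTCH1 is 1 of the 13, and Hedgehog pathway output was not tested. Beside SHISA3 and ROR2, the 36 other Wnt genes had 4 higher and 8 lower in Ov4Cis, 2 and 12 in Ov4Carbo, 6 and 6 in Ov4Carbo4 and 3 and 14 in Ov4Carbo7. Beside OASL, the 48 other interferon genes had 8 higher and 3 lower in Ov4Cis, 19 and 0 in Ov4Carbo, 3 and 3 in Ov4Carbo4 and 27 and 1 in Ov4Carbo7. Beside SLC47A1, the 47 other platinum genes had 6 higher and 2 lower in Ov4Cis, 3 and 4 in Ov4Carbo, 4 and 7 in Ov4Carbo4 and 15 and 3 in Ov4Carbo7.

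Members of the matrix, mesenchymal and adhesion lists stood beside other genes called in both directions. Beside SPARC, the 50 other matrix genes had 14 higher and 14 lower in Ov4Cis, 7 and 18 in Ov4Carbo, 7 and 15 in Ov4Carbo4 and 13 and 12 in Ov4Carbo7. Beside ENG, the 18 other mesenchymal genes had 5 higher and 6 lower in Ov4Cis, 2 and 9 in Ov4Carbo, 3 and 10 in Ov4Carbo4 and 5 and 8 in Ov4Carbo7. Beside CDH13, the 51 other adhesion and guidance receptors had 6 higher and 13 lower in Ov4Cis, 4 and 17 in Ov4Carbo, 10 and 9 in Ov4Carbo4 and 3 and 18 in Ov4Carbo7. In Ov4Carbo each of these 3 lists had more genes called lower than higher. Beside CXCL12, the 31 other NF-kB targets and cytokines had 5 higher and 6 lower in Ov4Cis, 1 and 7 in Ov4Carbo, 1 and 20 in Ov4Carbo4 and 7 and 4 in Ov4Carbo7. Beside HOXA11, the 26 other HOX genes had 11 higher and 5 lower in Ov4Cis, 5 and 3 in Ov4Carbo, 5 and 6 in Ov4Carbo4 and 9 and 8 in Ov4Carbo7. The 27 other channel and neuronal genes had 11 higher and 4 lower in Ov4Cis, 6 and 5 in Ov4Carbo, 13 and 4 in Ov4Carbo4 and 9 and 5 in Ov4Carbo7.

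How far the choice rests on single samples was examined by applying the rule to 2 replicate numbers and reading the third. Leaving number 1 out, 58 rows met the rule, and in the held-out samples 54 of them were above the parental sample in all 4 lines and 31 (53.4%) by at least 1.2. Leaving number 2 out, the counts were 61, 58 and 38 (62.3%), and leaving number 3 out 71, 66 and 43 (60.6%). Over all rows, 2.01%, 1.81% and 1.72% reached 1.2 in the held-out samples in all 4 lines. The held-out samples are replicates of the same lines, and the 4 lines share the held-out parental sample. The counts therefore describe how replicates of these lines repeat and nothing beyond them. With each of the 15 samples left out in turn, 39 of the 56 met the rule every time. The 17 that did not included SLC1A1, CA8, LDLRAD4 and C1orf127, which failed without Ov4Carbo replicate 1. Within the second title series alone, all 56 were at least 1.2 above the parental mean in Ov4Cis, with a median difference of 2.69. In Ov4Carbo replicates 2 and 3, 53 were, with a median of 1.95. In Ov4Carbo replicate 1, of the first series, 53 were, with a median of 2.30. All of these samples were used to choose the genes. Every parental and Ov4Cis sample is in the second series, so the rule fixed the count of 56 and nothing is read from it. With the series as a term in the fit, 48 of the 56 were at least 1.2 above the parental mean in Ov4Carbo4, 50 in Ov4Carbo7 and 43 in all 4 lines, and 55 were above it in all 4.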

How the data were processed

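Expression was measured by RNA-seq in 15 samples of 5 lines, 3 biological replicates each per the labels. The authors deposited log2 RPKM adjusted by conditional quantile normalization (cqn), per the name of their table. BWA 0.7.15-r1140 and HTSeq are named in the submitters' processing notes, with the builds hg19 and GRCh37. The files give no read totals, so counting error cannot be stated, and the normalization hides differences in total RNA.

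Line means chose the 56 genes. The genes and the lists were chosen with earlier results of these data known. A model with 1 coefficient per line was fitted to all 16604 rows with limma 3.58.1 in R 4.3.3 (two-sided, Benjamini-Hochberg over all rows), and only differences among resistant lines were tested for these genes. Each drug is represented by 1 selected line, so p-values measure the spread between replicates of a line and not between selections. Python 3.11.15 with pandas 2.3.3 was used for tables and matplotlib 3.10.9 for plots, and the fit was tested on simulated data. Genes were named by fixed rules: the 12 with the largest smallest difference, the 3 highest and 3 lowest in the parental line, list members, leading calls, those at the limits and neighbours. These took in 33 genes; the others, the role groups, the base composition measure and the printed promoters were chosen after the values were seen. GENCODE release 29 (GRCh38) gave chromosome names, gene order and overlaps only. Promoters came from RefSeq GRCh38.p14. Alternatives covered the limits, scaling, log scale, variance trend, low-value filter, samples in the fit, replicate block, title series, threshold and each sample left out. Values of 1 of the 56 genes are not reported here, although it is included in the counts.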

Additional observations from a re-analysis of the deposited data

Results flagged for a closer look

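In 12 cases a gene differed between 2 resistant lines by a test of the difference itself (limma, adjusted over all rows), and with it the size of its difference from the shared parental samples. For SST the log2 difference was -8.35 between Ov4Carbo4 and Ov4Carbo, 5.26 between Ov4Carbo7 and Ov4Carbo4, -3.89 between Ov4Cis and Ov4Carbo and 4.46 (4.455 before rounding) between Ov4Cis and Ov4Carbo4. For SLC1A1 it was 4.005 between Ov4Carbo7 and Ov4Carbo and -2.73 between Ov4Cis and Ov4Carbo7. For F2RL2 it was 2.83 between Ov4Carbo4 and Ov4Carbo and -2.11 between Ov4Cis and Ov4Carbo4. SHISA3 gave -1.95 between Ov4Carbo7 and Ov4Carbo, EN2 -2.16 between Ov4Carbo7 and Ov4Carbo4, PHACTR1 3.62 between Ov4Cis and Ov4Carbo and SPARC 2.00 between Ov4Cis and Ov4Carbo7.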

How the results depend on the processing

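The number of genes depended on the limits of the rule. It was 56 as reported, 90 with a difference of at least 1, 267 with no limit on the resistant means, 35 with resistant means of at least 1, 21 on log2(RPKM + 1) and 181 within title series 2 alone, where 2 lines remain. Leaving out each sample in turn gave 54 to 62 genes, and 39 to 46 genes by the F-test. The calls ranged from 12 to 19 between Ov4Carbo4 and Ov4Carbo, 8 to 13 between Ov4Carbo7 and Ov4Carbo, 18 to 22 between Ov4Carbo7 and Ov4Carbo4, 12 to 20 between Ov4Cis and Ov4Carbo, 12 to 16 between Ov4Cis and Ov4Carbo4 and 17 to 18 between Ov4Cis and Ov4Carbo7. With a term for the title series, Ov4Carbo7 against Ov4Carbo gave 5 calls in place of 12, Ov4Cis against Ov4Carbo7 12 in place of 18 (11 of them shared) and Ov4Cis against Ov4Carbo4 16 in place of 15 (10 shared), and the cause was not tested. The rule itself, with that term (chosen after seeing the data), took 57 genes, 40 of them shared. With the replicate number as a block, the F-test gave 42 genes in place of 43 and no count of calls moved by more than 2. Deviations of same-numbered samples had correlations from -0.394 to 0.437, over 0.1 in 11 of 30 pairs. In 1 of 10 pairs of lines, Ov4Cis and Ov4Carbo7, all 3 were over 0.1 (0.257, 0.141 and 0.233), and there the block gave 17 calls in place of 18. For the other pairs of lines the numbers were not taken as pairing. The block changed no call of the 12 leading differences. Of 287 alternative values of the 12 leading differences, 279 kept their direction and side of the threshold, 8 kept the direction and lost the call, and 0 reversed. Depth is unknown, so differences of genes near the bottom of the scale are uncertain in size.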
